A study of Mus musculus with 12 samples.

Results

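Chemokines and their receptors were examined in mammary tumors of MMTV-neu mice fed either of a pair of retinoid X receptor (RXR) agonists. The set held every protein-coding gene of the count table whose symbol begins with Ccl, Cxcl, Cx3cl, Xcl, Ccr, Cxcr, Cx3cr, Xcr or Ackr and a number. It came to 67 of the 54532 genes in the table, under 61 symbols, of which 44 genes were ligands and 23 were receptors. Membership used names only and no measured value. RNA-seq was available for 12 tumors in 3 groups of 4. All mice carried the MMTV-neu transgene, which drives the wild-type neu (HER2) oncogene from the mouse mammary tumor virus promoter in the mammary gland. Control mice ate powdered chow with vehicle, the MSU-42011 group ate the same chow with MSU-42011 at 100 mg/kg diet, and the bexarotene group ate it with bexarotene at 100 mg/kg diet. Feeding lasted 10 days and began when a tumor reached 4 mm in diameter. The age of the mice is not given in the sources used here. Each library came from a frozen piece of 1 tumor, so it mixed tumor cells with whatever stroma and immune cells that piece held. The diets were fed to 4 mice per group, the number of tumors in each group, although the labels do not tie a tumor to an animal, and the p-values measure the spread between these tumors.

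Chemokines are small secreted proteins that guide migrating cells along concentration gradients. They are sorted by the spacing of their conserved cysteines into CC, CXC, CX3C and XC families, and they act through G protein-coupled receptors on leukocytes and other cells. Inflammatory chemokines are switched on in injured or infected tissue and bring in monocytes, neutrophils and activated lymphocytes, whereas homeostatic chemokines hold cells in place in bone marrow, lymphoid tissue, skin and gut. Atypical receptors (Ackr genes) bind chemokines without the usual G protein signal and clear or redistribute them. In mammary tumors chemokines are best known for recruiting monocytes that become tumor macrophages. RXR agonists bind a nuclear receptor that pairs with other nuclear receptors, several of which regulate inflammatory genes in macrophages.

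Of the 67 genes, 54 were detected with at least 1 read in at least 1 tumor, and 31 were detected in all 12. The 13 genes at 0 in all tumors carried 8 symbols, Ccl19, Ccl21a, Ccl21b, Ccl21c, Ccl26, Ccl27b, Cxcr1 and scaffold copies of Ccl27a. Near-identical copies exist for Ccl19, the Ccl21 genes and Ccl27a, and 97.9% of the 100-base windows of Ccl27b also occur in other genes. Reads that match several genes may have been dropped when the authors counted, so a 0 for these genes is uncertain. The filter on low counts kept 32 members for testing, and 22 detected members were too low to be tested. Total counts ran from 16583413 to 25925027 per tumor with a median of 19342536, and 3 counts, taken as the detection floor of a library, corresponded to 0.111 to 0.184 CPM, the count scaled to the size of its library. These floors cover counting error only.

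Bexarotene replicate 1 stood apart from the other 11 tumors. Its median correlation with the others was 0.922, against 0.970 to 0.980 for the rest, and it was the highest tumor for 19.1% of the tested genes. Among the 32 tested members it was the highest tumor for 17 (53.1%), and 14 of these were more than 2 times the next tumor, from 2.79 times for Ccl4 to 20.9 times for Ccl6. Summed over all ligands the members reached 1098 CPM in that tumor and 120.7 to 287.3 CPM elsewhere, and summed over all receptors 325.7 CPM and 69.22 to 162.2 CPM. The same tumor held the highest summed level of the markers of fibroblasts (10470 CPM against 92.46 to 813.7 CPM), macrophages and monocytes (1701 against 201.3 to 562.3), endothelial cells (397 against 67.7 to 185), adipocytes (95.65 against 12.88 to 33.1) and skeletal muscle (250.6 against 1.43 to 126). Every gene of those 5 lists was highest there. Its mammary epithelial markers summed to 2934 CPM, below the 4340 to 5948 CPM of the other tumors, so the labelled tissue was present in all 12. Of these 8 markers, Epcam, Krt8, Krt18, Cdh1 and Elf5 were below every other tumor, while Cldn4 and Erbb2 lay inside the range of the others. Krt19 went the other way, at 28.15 CPM against 0 to 1.956 CPM elsewhere. The part of these cell type differences in the results was not tested, and fewer cells of a type and less RNA per cell cannot be told apart in bulk tumor RNA. Counts of members and the estimates for bexarotene are therefore given with and without bexarotene replicate 1.

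Several of the members with the largest bexarotene differences lie in genomic clusters of like genes. On chromosome 11 (GRCm38) the CC chemokine genes Ccl2, Ccl7, Ccl11, Ccl12, Ccl8 and Ccl1 lie within 270 kb, from 82035571 to 82305690. A second cluster on that chromosome, from 83525778 to 83664683, holds Ccl5, Ccl9, Ccl6, Ccl3 and Ccl4. Summed over its members, the first cluster reached 173.4 CPM in bexarotene replicate 1, 20.03 CPM in bexarotene replicate 2 and 3.245 to 11.69 CPM in the other 10 tumors. The second reached 337.2, 22.17 and 4.068 to 13.87 CPM. The cluster of CXCR2 ligands on chromosome 5, from 90759360 to 90905938, showed no such order, with 3.654 CPM in bexarotene replicate 1, 5.342 in bexarotene replicate 2 and 1.091 to 4.214 elsewhere.

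The 250 bases before the RefSeq start (GRCm38.p6) are shown for 6 members that were highest in bexarotene replicate 1, each 5′ to 3′ on the gene's own strand. They are a selection. Cxcl14 has no neighbouring member, and other members highest in that tumor with a promoter entry, among them Ccl3 and Ccr1, are not shown. Capitals mark every match, on either strand, to the nuclear receptor half-site AGGTCA, the AP-1 site TGANTCA, the STAT site TTCNNNGAA, the NF-kB site or the TATA box TATAAA.
Ccl12, chr11:82101595-82101844, plus strand: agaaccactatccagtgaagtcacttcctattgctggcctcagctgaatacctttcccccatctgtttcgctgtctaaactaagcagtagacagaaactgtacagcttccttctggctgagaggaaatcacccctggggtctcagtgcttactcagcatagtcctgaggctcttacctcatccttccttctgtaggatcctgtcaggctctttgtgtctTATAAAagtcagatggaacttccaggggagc
Ccl8, chr11:82114935-82115184, plus strand: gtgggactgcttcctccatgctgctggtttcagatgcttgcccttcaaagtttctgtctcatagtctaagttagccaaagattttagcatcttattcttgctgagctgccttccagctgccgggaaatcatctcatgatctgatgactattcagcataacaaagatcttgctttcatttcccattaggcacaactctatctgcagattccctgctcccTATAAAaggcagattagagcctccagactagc
Ccl9, chr11:83578637-83578886, minus strand: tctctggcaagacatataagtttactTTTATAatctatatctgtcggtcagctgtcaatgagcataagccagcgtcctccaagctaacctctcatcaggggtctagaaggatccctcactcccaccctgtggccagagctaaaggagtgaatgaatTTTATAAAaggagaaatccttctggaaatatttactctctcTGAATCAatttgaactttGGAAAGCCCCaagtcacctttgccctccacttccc
Ccl6, chr11:83593088-83593337, minus strand: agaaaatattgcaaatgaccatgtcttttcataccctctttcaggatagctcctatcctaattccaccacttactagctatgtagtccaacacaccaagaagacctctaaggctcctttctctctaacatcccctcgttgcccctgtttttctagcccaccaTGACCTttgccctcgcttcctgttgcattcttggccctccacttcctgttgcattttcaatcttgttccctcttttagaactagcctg
Ccr2, chr9:124101933-124102182, plus strand: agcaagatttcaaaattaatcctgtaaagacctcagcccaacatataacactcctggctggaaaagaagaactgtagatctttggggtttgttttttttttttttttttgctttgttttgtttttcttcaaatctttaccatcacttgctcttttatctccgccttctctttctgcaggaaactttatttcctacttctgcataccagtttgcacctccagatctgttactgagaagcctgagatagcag
Cxcl14, chr13:56296552-56296801, minus strand: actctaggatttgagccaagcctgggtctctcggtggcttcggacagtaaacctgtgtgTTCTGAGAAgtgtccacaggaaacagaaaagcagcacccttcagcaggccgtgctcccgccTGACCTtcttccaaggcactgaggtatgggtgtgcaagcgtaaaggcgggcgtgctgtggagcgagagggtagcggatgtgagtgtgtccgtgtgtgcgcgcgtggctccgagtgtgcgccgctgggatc
In Ccl12 and Ccl8 the only match was a TATA box, 31 and 32 bases before the start. Ccl9 held TATA box letters at 224, 94 and 92 bases, the last pair overlapping, an AP-1 match 53 bases and an NF-kB match 35 bases before the start. Ccl6 held the half-site on the opposite strand 88 bases before its start and no TATA box match, and Cxcl14 held it on the opposite strand 130 bases before its start beside a STAT match at 191 bases. The Ccr2 window, whose RefSeq start differs from that of the deposited annotation, held none of these motifs. Over 32841 RefSeq promoters of this length, AGGTCA occurred in 14%, the AP-1 site in 6.75%, the STAT site in 7.02%, the NF-kB site in 7.25% and TATAAA in 12.4%. Of 53 member promoters in the table, 15 held AGGTCA, 6 the AP-1 site, 4 the STAT site, 11 the NF-kB site and 15 TATAAA. A match describes letters in a window and was not tied to any level measured here.

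Compared per length, as FPKM, which divides the library-scaled count by the length of the gene, a few members stood well above the rest. The highest median over the 12 tumors belonged to Cx3cl1, which encodes the membrane-anchored chemokine fractalkine, at 34.26 FPKM (21.71 to 95.20). Cxcr4, the receptor for Cxcl12, followed at 33.39 FPKM (21.48 to 50.26), and the ranges of these leading members overlapped. Ccl27a, a chemokine of skin epithelium, had a median of 20.39 FPKM, but 26.5% of its 100-base windows also occur in other genes and it overlaps Il11ra1 on the opposite strand, so its level is uncertain.

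Cxcl12, which retains cells that carry Cxcr4, had a median of 17.12 FPKM (10.68 to 35.94), Cx3cr1, the fractalkine receptor of macrophages and other leukocytes, 11.99 FPKM (7.236 to 32.02), and Cxcl16, a membrane-bound ligand of Cxcr6, 10.47 FPKM (4.886 to 21.83). The ranges of these 3 overlapped too. For Cxcl16, 14.2% of the 100-base windows also occur in other genes, and it overlaps Zmynd15 on the opposite strand. The members with at least 1 FPKM in every tumor included Ackr3, Ccl25, Ccl27a, Ccl28, Ccl5, Cx3cl1, Cx3cr1, Cxcl12, Cxcl14, Cxcl16 and Cxcr4. Ccl6 had a median of 1.732 FPKM and ranked 16th, although its range ran from 0.7558 to 253.1 FPKM, and Ccl8 had a median of 1.052 FPKM with a highest value of 132.6 FPKM.

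**Figure D1:**
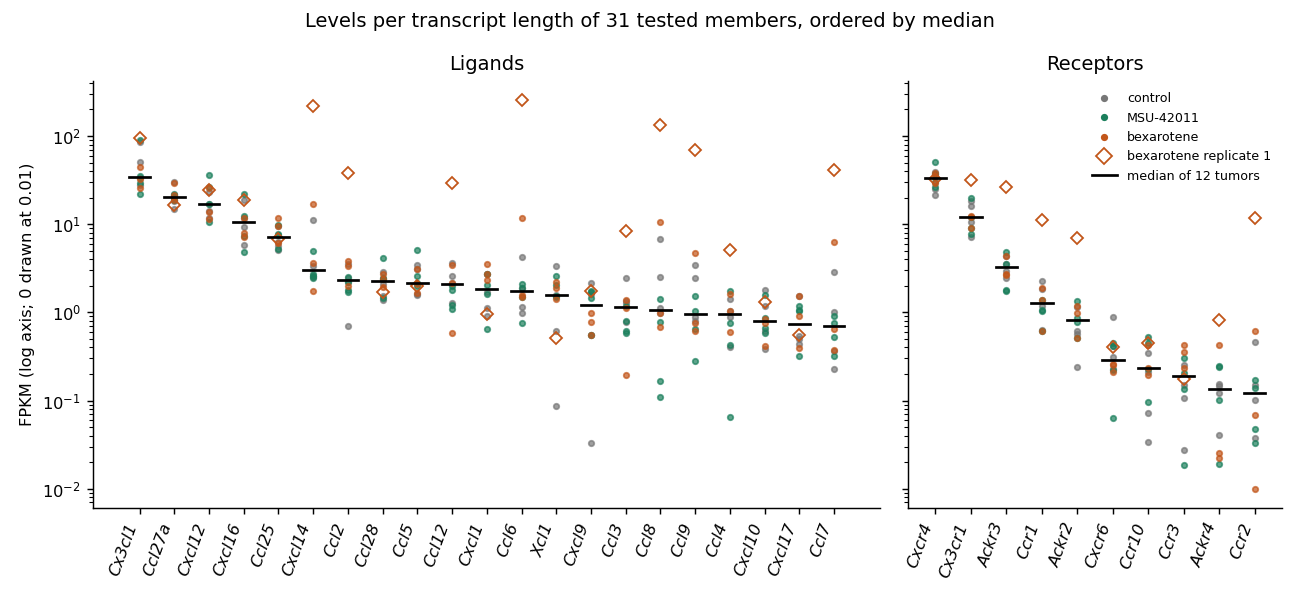
FPKM of members in each of the 12 tumors on a log axis, ligands and receptors ordered by their median, with groups by color. Cx3cl1, Cxcr4, Ccl27a and Cxcl12 have the highest medians, between 17.12 and 34.26 FPKM, and the open diamonds far above the other points for Ccl6, Ccl8 and Cxcl14 belong to bexarotene replicate 1.

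To ask what bexarotene did to these genes, the bexarotene tumors were compared with the control tumors using edgeR's quasi-likelihood test over 15504 genes. None of the 32 tested members passed an adjusted p of 0.05 and neither did any other gene (background 0%). At an unadjusted p under 0.05, 8 members were higher and 0 lower, that is 25% of those tested, against a background of 4.48% of all genes higher, 1.96% lower and 6.44% in either direction. The 8 were the ligands Ccl2, Ccl6, Ccl7, Ccl8, Ccl9 and Cxcl14, the receptor Ccr2 and the atypical receptor Ackr2. At that level none remained without bexarotene replicate 1, where the background over both directions was 3.35% of 15619 genes. DESeq2 and limma, run as alternatives, also called no member at an adjusted p of 0.05 in this comparison. The number at an unadjusted p under 0.05 fell to 5 without control replicate 2, and to 4 without control replicate 3 or without control replicate 4.

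Ccl6, a rodent CC chemokine that acts on Ccr1-bearing cells, was at 1.72, 3.98, 0.855 and 1.08 CPM in the 4 control tumors and at 214.5, 10.2, 1.31 and 1.47 CPM in the bexarotene tumors. The first and second bexarotene tumors were above every control tumor, the other two were inside the control range, and the groups overlapped. The means were 1.91 ± 1.43 CPM in control and 56.9 ± 105 CPM in bexarotene (SD, n = 4 each), and the fitted difference was 4.89 on the log2 scale (SE 1.44, 95% confidence interval 1.78 to 8.02, unadjusted p = 0.00502 and adjusted p = 0.762 by edgeR). Without bexarotene replicate 1 the bexarotene mean was 4.35 ± 5.12 CPM (SD, n = 3) and the difference 1.19 (interval -0.39 to 2.77). An exact permutation test on log2(CPM + 0.5) gave p = 0.229 with and p = 0.457 without that tumor, where the smallest possible values are 0.0286 and 0.0571.

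Its neighbour Ccl9, another Ccr1 ligand, was at 4.21, 6.20, 1.497 and 1.42 CPM in control tumors and at 112, 7.96, 1.26 and 1.10 CPM in bexarotene tumors. Here too the first and second bexarotene tumors were the highest, while the other two lay below all controls. The difference was 3.20 on the log2 scale with all tumors and 0.05 without bexarotene replicate 1. Among the other ligands of that cluster, Ccl5, made by T cells, had a log2 difference of -0.18 between bexarotene and control tumors, and Ccl3 and Ccl4 had differences of 0.82 and 1.10, none of them at an unadjusted p under 0.05. Without bexarotene replicate 1 these 3 differences were -0.11, -0.73 and 0.20. The 5 ligands of the cluster together had a median difference of 1.10 with all tumors and 0.05 without bexarotene replicate 1, against 0.03 and 0.01 over all genes.

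The monocyte-attracting ligands lie in the first chromosome 11 cluster. Ccl2, the main monocyte attractant, was at 3.44, 2.46, 2.08 and 0.690 CPM in control tumors and at 34.9, 3.62, 1.84 and 3.37 CPM in bexarotene tumors, a log2 difference of 2.34 with all tumors and of 0.45 without bexarotene replicate 1. Ccl7 was at 2.37, 0.189, 0.802 and 0.302 CPM in control and at 31.6, 5.01, 0.291 and 0.552 CPM in bexarotene tumors. For both genes the first and second bexarotene tumors exceeded every control and the groups overlapped. The differences for Ccl7 were 3.38 and 1.12.

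Ccl8 was at 3.50, 0.521, 1.28 and 0.603 CPM in control tumors and at 64.8, 5.39, 0.484 and 0.368 CPM in bexarotene tumors, and the lower pair lay below every control. Its difference was 3.61 on the log2 scale (SE 1.40) with all tumors and 0.52 without bexarotene replicate 1. Ccl12 was at 1.90, 1.14, 0.641 and 1.38 CPM in control and at 14.3, 1.76, 0.291 and 1.17 CPM in bexarotene tumors, with differences of 1.80 and -0.23. Of these 4 ligands, 3 had an unadjusted p under 0.05 with all tumors and none without bexarotene replicate 1, and the median difference went from 2.86 to 0.48.

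Ccr2, the receptor that draws these monocytes from the blood, was high in the same tumors. It was at 1.72, 0.142, 0.534 and 0.388 CPM in control tumors and at 41.0, 2.19, 0.242 and 0 CPM in bexarotene tumors, where the last value is 0 counts and the first 1110 counts. Its log2 difference was 3.99 (SE 1.55) with all tumors and 0.27 without bexarotene replicate 1. Ccr1 was at 6.59, 5.44, 1.76 and 3.49 CPM in control and at 30.04, 5.29, 3.78 and 1.84 CPM in bexarotene tumors. For Ccr1 only bexarotene replicate 1 lay above the controls, and the difference of 1.25 became -0.24 without it.

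Cxcl14, a homeostatic chemokine of epithelia and stroma, had the highest level in CPM of any ligand in a single tumor, while per length that of Ccl6 was higher (253.1 against 219 FPKM). It was at 18.6, 5.73, 4.22 and 4.35 CPM in control tumors and at 345.0, 27.6, 5.81 and 3.06 CPM in bexarotene tumors, means of 8.22 ± 6.94 and 95.4 ± 167 CPM (SD, n = 4 each). The log2 difference was 3.55 (SE 1.22) with all tumors and 0.57 without bexarotene replicate 1. Ackr2, which scavenges inflammatory CC chemokines, was at 0.415, 1.09, 0.962 and 2.02 CPM in control and at 11.2, 2.003, 1.598 and 0.920 CPM in bexarotene tumors, with differences of 1.80 and 0.41. Ackr3, which scavenges Cxcl12, was at 5.22, 8.001, 4.17 and 6.38 CPM in control and at 44.1, 7.44, 4.46 and 5.03 CPM in bexarotene tumors, with differences of 1.36 and -0.08. Only bexarotene replicate 1 stood above the controls for both atypical receptors.

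**Figure D2:**
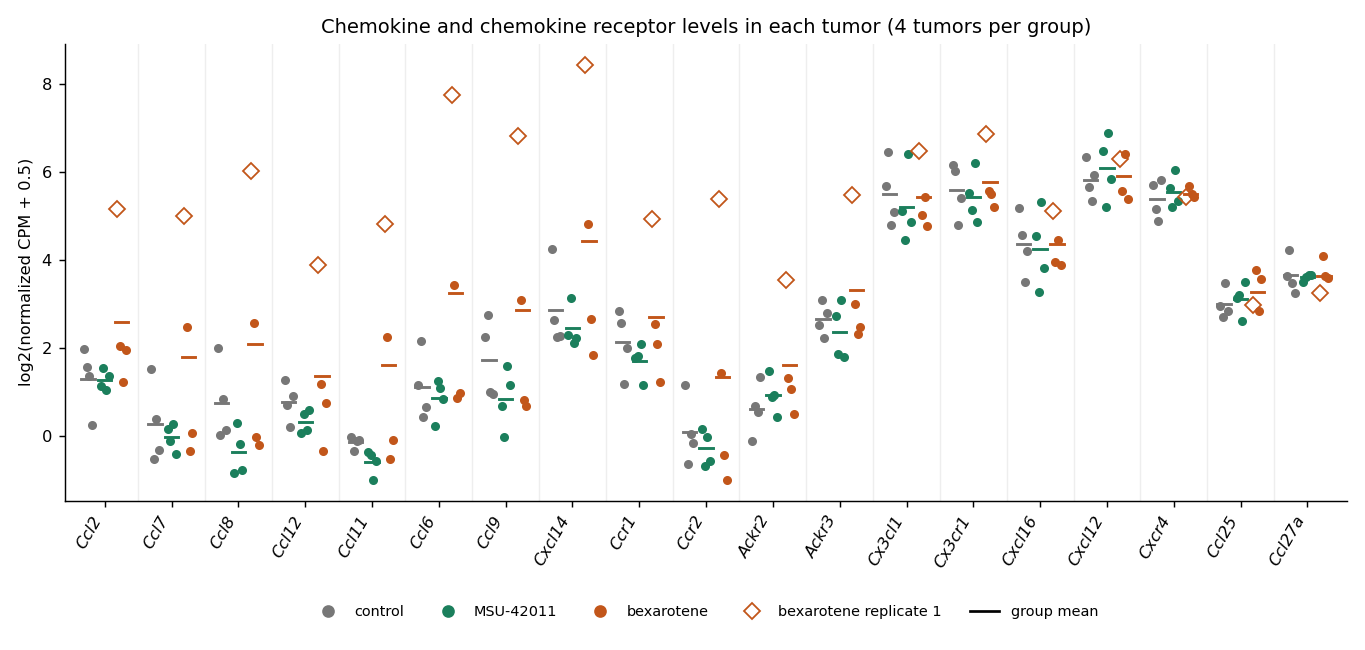
log2(CPM + 0.5) of 19 members in each tumor, by diet group, with a bar at the group mean; the open diamond is bexarotene replicate 1. For Ccl6, Ccl9, Cxcl14 and Ccr2 the diamond lies far above all other points, at 214.5, 112, 345.0 and 41.0 CPM, whereas for Cxcr4, Cxcl12 and Ccl25 the 3 groups overlap.

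Over all 32 tested members, 25 (78.1%) had a log2 difference above 0 between bexarotene and control tumors, against 55.3% of all genes, and the median was 0.88 against 0.03. The count was 20 (62.5%) without bexarotene replicate 1 against 51.1%, and the median 0.15 against 0.01. The most abundant members had estimates near 0, with intervals that bound a difference to about 1 on the log2 scale. Cxcr4 differed by 0.07 on the log2 scale (95% confidence interval -0.41 to 0.55), Ccl27a by -0.02 (-0.53 to 0.49), Cxcl12 by 0.13 (-0.63 to 0.89) and Cx3cr1 by 0.25 (-0.65 to 1.16). The same differences without bexarotene replicate 1 were 0.10, 0.10, 0.00 and -0.27, so the sign turned for Ccl27a and Cx3cr1.

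Cxcr4 was at 51.7, 35.3, 28.8 and 55.7 CPM in control tumors and at 42.4, 50.7, 44.9 and 42.2 CPM in bexarotene tumors. Cxcl12 was at 79.9, 50.04, 39.7 and 60.3 CPM in control and at 78.3, 46.7, 84.4 and 41.4 CPM in bexarotene tumors. The bexarotene values of Cxcr4 lay wholly inside the control range and those of Cxcl12 nearly so, and bexarotene replicate 1 was not extreme for either. Cx3cl1 was at 50.7, 87.5, 27.0 and 33.7 CPM in control and at 88.5, 31.7, 42.7 and 26.6 CPM in bexarotene tumors (log2 difference -0.07, interval -1.16 to 1.03, and -0.56 without bexarotene replicate 1). Its spread within each group exceeded the difference between them. Cx3cr1 was at 70.9, 64.2, 27.3 and 42.1 CPM in control and at 116, 46.7, 44.3 and 36.2 CPM in bexarotene tumors, and Cxcl16 at 36.0, 23.2, 10.8 and 18.0 CPM and at 34.2, 14.9, 21.5 and 14.2 CPM, with overlap in both. The difference for Cxcl16 was -0.05 (interval -1.06 to 0.96) and -0.38 without bexarotene replicate 1. Ccl27a was at 11.99, 18.2, 10.53 and 9.007 CPM in control and at 9.004, 16.6, 11.96 and 11.5 CPM in bexarotene tumors. Ccl25, a chemokine of thymus and small intestine, was at 7.18, 6.01, 10.6 and 6.64 CPM in control and at 7.31, 13.0, 6.63 and 11.3 CPM in bexarotene tumors (log2 difference 0.33, interval -0.29 to 0.94, and 0.44 without bexarotene replicate 1). Its reads and those of Elavl1 on the opposite strand cannot be told apart where the genes overlap, if counting ignored strand, and the sources used here do not give the strand setting.

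**Figure D3:**
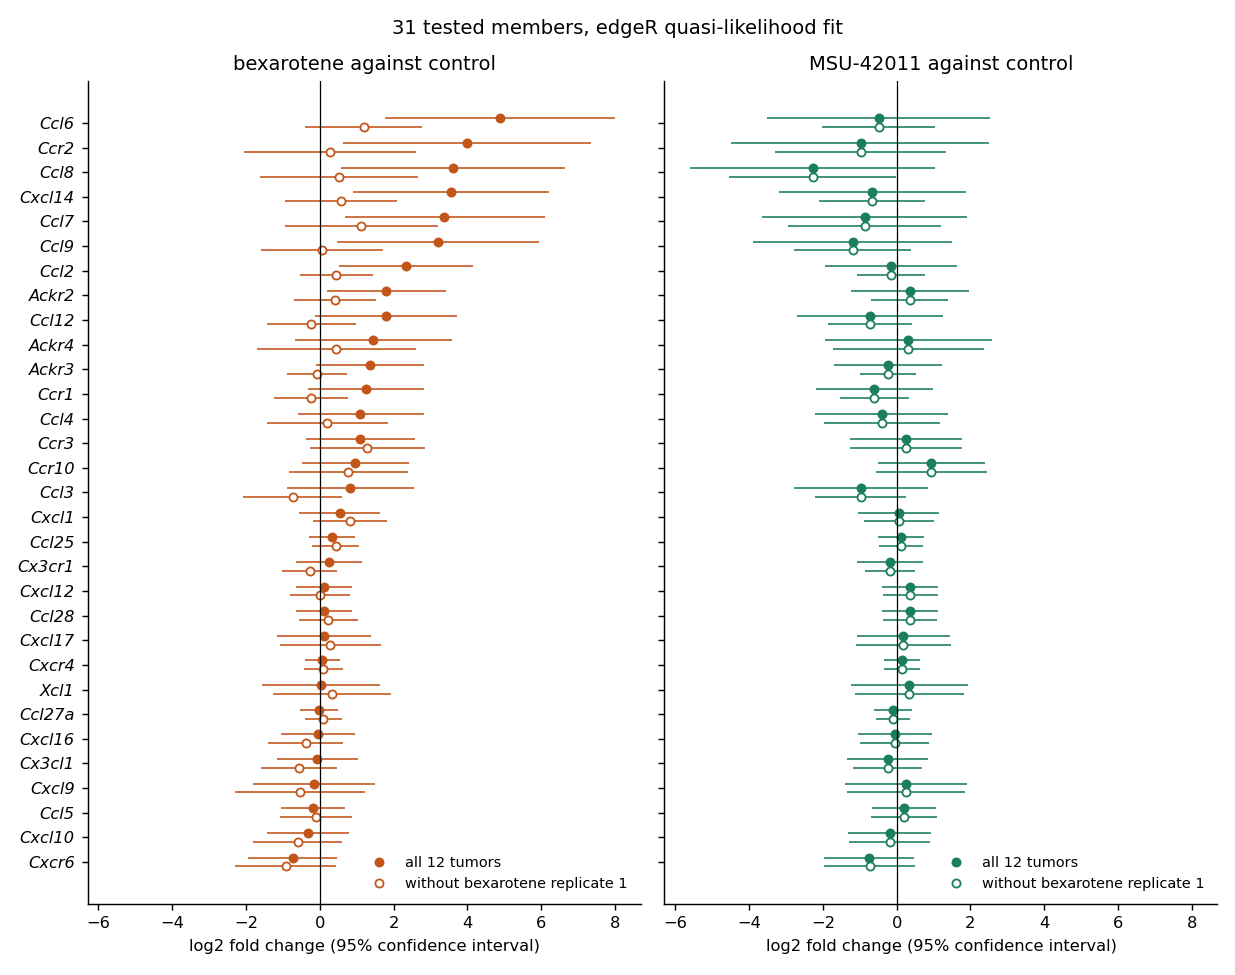
Log2 differences from control of 31 tested members with 95% confidence intervals, for bexarotene and for MSU-42011, with all tumors and without bexarotene replicate 1. For bexarotene the estimates of Ccl6, Ccr2, Ccl8 and Cxcl14 lie between 3.55 and 4.89 with all tumors and between 0.27 and 1.19 without that tumor, and for MSU-42011 every interval with all tumors includes 0.

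The same question for MSU-42011 gave fewer and mostly negative differences. By edgeR none of the 32 tested members and no other gene passed an adjusted p of 0.05 (background 0%), and 0 members had an unadjusted p under 0.05, where the background was 1.99% of 15504 genes, 1.14% higher and 0.851% lower. DESeq2 and limma called no member either. The log2 difference was above 0 for 13 members (40.6%, background 50.3%), and the median was -0.13 against 0.00 over all genes. That median was 0.07 without control replicate 1, so its direction rests on this tumor. Bexarotene and MSU-42011 were each compared with the same 4 control tumors, so the differences are not independent of each other.

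The lowest estimate was that of Ccl8. It was at 0.0550, 0.727, 0.379 and 0.0838 CPM in MSU-42011 tumors, from 1, 12, 7 and 2 counts, beside the 0.521 to 3.50 CPM of the controls. Only MSU-42011 replicate 2 reached into the control range. The means were 0.311 ± 0.314 CPM and 1.48 ± 1.39 CPM (SD, n = 4 each), and the log2 difference was -2.26 (SE 1.53, 95% confidence interval -5.61 to 1.05, unadjusted p = 0.161 by edgeR). With bexarotene replicate 1 left out of the shared estimate of spread, the standard error was 1.05 and the unadjusted p 0.0496, the adjusted p was 1, and Ccl8 was the 1 member below 0.05 (background 1.09% of genes lower and 2.63% in either direction). An exact permutation test gave p = 0.0857.

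All 4 monocyte-attracting ligands had estimates below 0, with a median of -0.79, and none reached an unadjusted p under 0.05 with all tumors. Ccl2 was at 1.71, 2.42, 1.57 and 2.05 CPM in MSU-42011 tumors, Ccl7 at 0.605, 0.424, 0.704 and 0.252 CPM and Ccl12 at 0.550, 0.909, 0.596 and 1.01 CPM. All 3 sets of values overlapped the control values. The estimates for Ccl2 and Ccl7 changed sign with 1 tumor left out, Ccl2 from -0.45 to 0.16 and Ccl7 from -1.21 to 0.21. Ccl9 was at 1.10, 0.485, 2.49 and 1.72 CPM (log2 difference -1.19) and Ccl6 at 0.660, 1.88, 1.62 and 1.30 CPM (-0.49, interval -3.51 to 2.53), both overlapping the control tumors. Cxcl14 was at 4.40, 8.30, 3.85 and 4.19 CPM, a difference of -0.66. The sign also turned for Ccl6, to 0.17 without control replicate 2, and for Cxcl14, to 0.12 without control replicate 1.

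Among receptors, Ccr2 was at 0.605, 0.121, 0.487 and 0.168 CPM in MSU-42011 tumors (log2 difference -0.98, and -0.04 without control replicate 1) and Ccr1 at 2.92, 3.03, 3.74 and 1.72 CPM (-0.60). Both ranges overlapped the control ranges. The atypical receptors Ackr2, at 2.25, 1.33, 1.41 and 0.838 CPM, and Ackr3, at 6.10, 3.15, 7.96 and 2.93 CPM, also overlapped the controls. Cxcr4 was at 48.9, 36.0, 65.2 and 39.6 CPM (0.15, interval -0.34 to 0.63), Cxcl12 at 88.2, 36.3, 117 and 56.9 CPM (0.37), Cx3cl1 at 33.8, 21.2, 84.3 and 28.3 CPM, Cx3cr1 at 45.1, 34.4, 72.8 and 28.6 CPM and Cxcl16 at 22.8, 9.21, 39.3 and 13.5 CPM. MSU-42011 replicate 3 was the highest tumor of its group for these 5 genes. The epithelial chemokines Ccl25, at 8.25, 8.66, 5.58 and 10.7 CPM, and Ccl27a, at 10.8, 11.8, 12.1 and 12.03 CPM, stayed inside or close to the control range.

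Ccl11, the eosinophil attractant eotaxin, was too low for the test across genes, but it is described here because its MSU-42011 and control tumors did not overlap. Its mean of at least 1 CPM, which the choice also asked for, came from the bexarotene tumors. It was at 0.475, 0.284, 0.428 and 0.431 CPM in control tumors and at 0.275, 0.242, 0 and 0.168 CPM in MSU-42011 tumors. The mean difference in log2(CPM + 0.5) was -0.45, given without a test since the gene was chosen for this pattern. The control tumors held 6 to 10 counts and the MSU-42011 tumors 0 to 5, close to the floor of 3 counts. None of the 32 tested members had groups without overlap in any of the 3 comparisons. Over all tested genes 1.16% were higher and 0.806% lower without overlap in MSU-42011 than in control tumors, 1.14% and 0.89% in bexarotene than in control tumors, and 0.632% and 0.535% in MSU-42011 than in bexarotene tumors.

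The agonists were then compared with each other at the same dose and time. By edgeR no member and no gene passed an adjusted p of 0.05 (background 0%). At an unadjusted p under 0.05, 10 members (31.2%) were lower in MSU-42011 than in bexarotene tumors, namely Ackr3, Ccl12, Ccl2, Ccl6, Ccl7, Ccl8, Ccl9, Ccr1, Ccr2 and Cxcl14, and 0 were higher, against a background of 3.13% of genes lower, 0.819% higher and 3.95% in either direction. The count was 2 without bexarotene replicate 1, Ccl6 and Ccl8, against a background of 1.47% lower and 3.07% in either direction. The log2 difference was above 0 for 8 members (25%) against 45.1% of all genes, and without that tumor for 13 (40.6%) against 50% of all genes. The median member difference went from -0.66 to -0.15.

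Ccl8 differed by -5.87 on the log2 scale between MSU-42011 and bexarotene tumors (unadjusted p = 0.00332 by edgeR) and by -2.78 without bexarotene replicate 1 (SE 1.09, 95% confidence interval -5.16 to -0.44, unadjusted p = 0.024). Ccl6 differed by -5.38 (unadjusted p = 0.00331 by edgeR) and by -1.67 (SE 0.74, interval -3.29 to -0.07, unadjusted p = 0.0422). All adjusted p-values in this comparison were 0.939 or more for the members with an unadjusted p under 0.05. Without bexarotene replicate 1 the groups still overlapped for both genes, since bexarotene replicate 2 alone was clearly above the MSU-42011 tumors, and exact permutation tests gave p = 0.286 for Ccl8 and p = 0.457 for Ccl6.

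DESeq2 called 2 members in this comparison, Ccl8 (log2 difference -5.82, adjusted p = 0.0351) and Ccl11 (-5.56, adjusted p = 0.0351), and with its outlier filter off also Ccl6 (-5.36, adjusted p = 0.0251). It called none without bexarotene replicate 1, where its differences were -3.245 for Ccl11 and -2.759 for Ccl8. Against control its difference for Ccl11 was 4.313 with all tumors and 2 without that tumor, neither called. Ccl11 was at 27.8, 4.25, 0.194 and 0.429 CPM in bexarotene tumors, so the first pair again stood above all others. Among the abundant members, Cxcr4 ranged from 36.0 to 65.2 CPM in MSU-42011 and from 42.2 to 50.7 CPM in bexarotene tumors (log2 difference 0.07, interval -0.41 to 0.56), Cxcl12 differed by 0.25 (-0.51 to 1.01) and Cx3cl1 by -0.18 (-1.27 to 0.92), which became 0.05, 0.37 and 0.32 without bexarotene replicate 1, and differences within these intervals were not detectable with 4 tumors in each group. A test among the 3 groups together gave 8 members with an unadjusted p under 0.05 (background 4.24%) and, without bexarotene replicate 1, 0 (background 2.46%).

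Of the 22 detected but untested members, 14 were highest in bexarotene replicate 1. The margins ran from 1.08 times the next tumor for Ccr9 to 26.5 times for Cxcl15, and Ccr1l1 was detected in no other tumor. These rest on few reads, since Cxcl15 had 45 counts over all tumors and Ccr1l1 had 2. Bexarotene replicate 1 also had the largest total count, 25925027. The share of all other genes too low for testing that were highest in it was not computed. Ccl24, an eosinophil attractant, was at 6.57 CPM in it, Ccl17, a ligand of Ccr4, at 3.73 CPM and Ackr1, which venous endothelium and red cells carry, at 2.95 CPM, or 80 counts against 0 to 2 in the other tumors. Cxcr3, a receptor of activated T cells, was at 1.77 CPM there, 48 counts against 0 to 9 in the other tumors, and Cxcl13, which organizes B cell follicles, at 1.48 CPM, or 40 counts against 8 in bexarotene replicate 2. Across the other 11 tumors none of the 14 exceeded 4.25 CPM, the level of Ccl11 in bexarotene replicate 2. Ackr1 shares 13.6% of its 100-base windows with other genes.

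By role, the sums of the monocyte-attracting ligands, of the second chromosome 11 cluster and of the ligands of Ccr3 and Ccr4 set bexarotene replicate 1 apart. The sums of the ligands of Cxcr2 and Cxcr3 did not, although 2 of the 5 listed Cxcr2 ligands were highest in it. These were the untested Cxcl15, at 1.624 CPM, and Cxcl5, at 0.5535 CPM. Ccl3, Ccl4, Ccl5, Ccl6 and Ccl9 summed to 337.2 CPM in it and 4.068 to 22.18 CPM in the other 11 tumors, the monocyte-attracting ligands to 145.6 and 2.906 to 15.79 CPM, and the ligands of Ccr3 and Ccr4 to 38.89 and 0.3772 to 5.485 CPM. In contrast the ligands of Cxcr2, which attract neutrophils, summed to 3.653 CPM in it and 1.091 to 5.342 CPM elsewhere, those of Cxcr3, which attract activated T cells, to 4.28 and 0.5345 to 5.934 CPM, and the epithelial CC chemokines to 20.59 and 21.4 to 35.82 CPM. The T cell markers likewise lay within the range of the others, at 10.44 CPM against 5.15 to 14.41 CPM. Neutrophil markers summed to 11.03 against 1.657 to 8.806 CPM, but Csf3r alone was at 10.04 CPM in bexarotene replicate 1. Only 1 of the 8 neutrophil markers was highest there. Dendritic cell markers summed to 25.83 against 5.185 to 21.07 CPM, with 5 of 8 highest there. NK cell markers summed to 1.993 against 0.3742 to 1.958 CPM, with 1 of 6 highest there. B cell and plasma cell markers summed to 5.018 against 0.4843 to 3.635 CPM, with 2 of 6 highest there. Bexarotene replicate 2, the next highest tumor for 7 of the members above, had the second highest fibroblast sum, 813.7 CPM. Without bexarotene replicate 1, 7 of the 8 fibroblast markers had a log2 difference above 0 between bexarotene and control tumors (median 0.80). Of the 11 tested macrophage and monocyte markers 0 did (median -0.26), and of all genes 51.1% did. The fibroblast sums of bexarotene replicates 3 and 4, 222.7 and 150.6 CPM, lay inside the control range of 92.46 to 425.1 CPM. The part of these cell types in the members' levels was not tested.

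**Figure D4:**
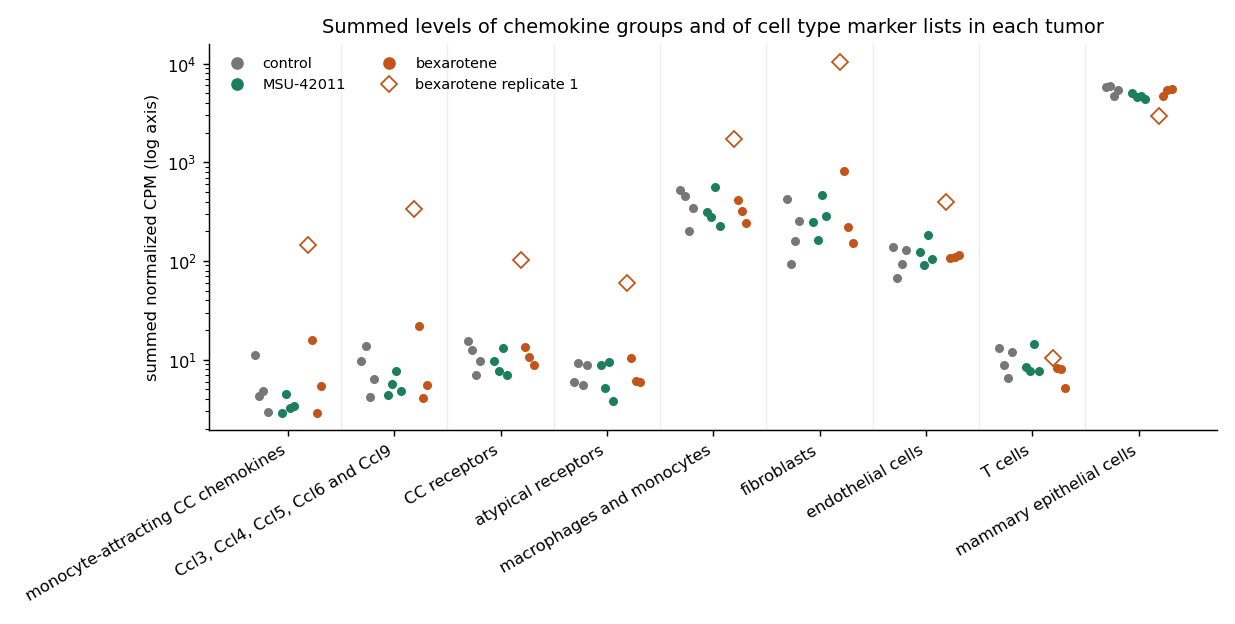
Summed CPM of groups of chemokine genes and of cell type marker lists in each tumor on a log axis, colored by diet group, with an open diamond for bexarotene replicate 1. The diamond is highest for the monocyte-attracting ligands (145.6 CPM), CC receptors (103.1 CPM), fibroblast markers (10470 CPM) and macrophage markers (1701 CPM), and lowest for mammary epithelial markers (2934 CPM).

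Whether a ligand and its receptor vary together across tumors was tested for the 6 of 15 known pairs in which both genes could be tested, over 12 tumors with permutation p-values adjusted over the 6, and 5 of these pairs are given. Cx3cl1 and Cx3cr1 showed the closest relation (Pearson r = 0.884, permutation p = 0.00018, adjusted p = 0.00108; Spearman rho = 0.874, permutation p = 0.00044). It was 0.859 without bexarotene replicate 1, 0.857 without the 2 tumors farthest from the median of Cx3cl1, and 0.896 for deviations from the group means. The relation thus remained, pooled over the 12 tumors, once the differences between group means were removed, and did not rest on the tumor that stood apart. It was not computed inside any single group. The reads of Cx3cr1 come from a locus that overlaps several genes, some on the opposite strand.

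Cxcl16 and Cxcr6 were related in the same way (r = 0.813, permutation p = 0.00054, adjusted p = 0.00162; rho = 0.853), with 0.835 without bexarotene replicate 1 and 0.775 without the 2 farthest tumors. Cxcr6 had only 2 to 29 counts per tumor and overlaps the more abundant Fyco1 on the opposite strand. Cxcl16 shares part of its sequence with other genes, as given above. Cxcl12 and Cxcr4 had r = 0.708 (permutation p = 0.00992, adjusted p = 0.0198; rho = 0.699), 0.738 without bexarotene replicate 1 and 0.529 without the 2 farthest tumors. Ccl2 and Ccr2 had r = 0.875 (permutation p = 0.0338, adjusted p = 0.0506), but rho was 0.28 and r was 0.281 without bexarotene replicate 1, so this relation rests on that tumor. Cxcl12 with Ackr3 (r = 0.361, adjusted permutation p = 0.324) was not related beyond an adjusted p of 0.05.

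Macrophage and T cell markers moved with several of the same genes. Across the 12 tumors Cx3cr1 followed the summed macrophage and monocyte markers with r = 0.956 (permutation p = 2e-05, the smallest these permutations can give, adjusted p = 0.00024 over 12 relations; rho = 0.965), and with 0.969 without bexarotene replicate 1. Cx3cl1 followed the same sum with r = 0.793 (adjusted permutation p = 0.00444) and Cxcl16 with r = 0.746 (adjusted permutation p = 0.00776). By Pearson r, Cxcr6 (r = 0.463, 0.172), Cxcl12 (0.501, 0.122) and Cxcr4 (0.341, 0.278) did not pass an adjusted permutation p of 0.05 with that sum. By Spearman rho Cxcr6 passed it (rho = 0.72, adjusted permutation p = 0.0147), while Cxcl12 (0.552, 0.0637) and Cxcr4 (0.573, 0.0599) did not. Without bexarotene replicate 1, r with that sum was 0.644 for Cxcr6, 0.586 for Cxcl12 and 0.678 for Cxcr4. The summed T cell markers were related to Cxcr6 (r = 0.711, adjusted permutation p = 0.0234), Cxcl16 (0.762, 0.0142), Cxcr4 (0.691, 0.0237), Cxcl12 (0.706, 0.0234), Cx3cl1 (0.633, 0.0398) and Cx3cr1 (0.670, 0.0292), that is to all 6 genes examined. The 2 tumors farthest from the median of the T cell sum were MSU-42011 replicate 3 and bexarotene replicate 4. Without them r with that sum was 0.478 for Cx3cl1, 0.513 for Cxcl12 and 0.659 to 0.816 for the other genes. These 12 relations were chosen after the pair relations were seen, and the part of the cell types in the pair relations was not tested.

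**Figure D5:**
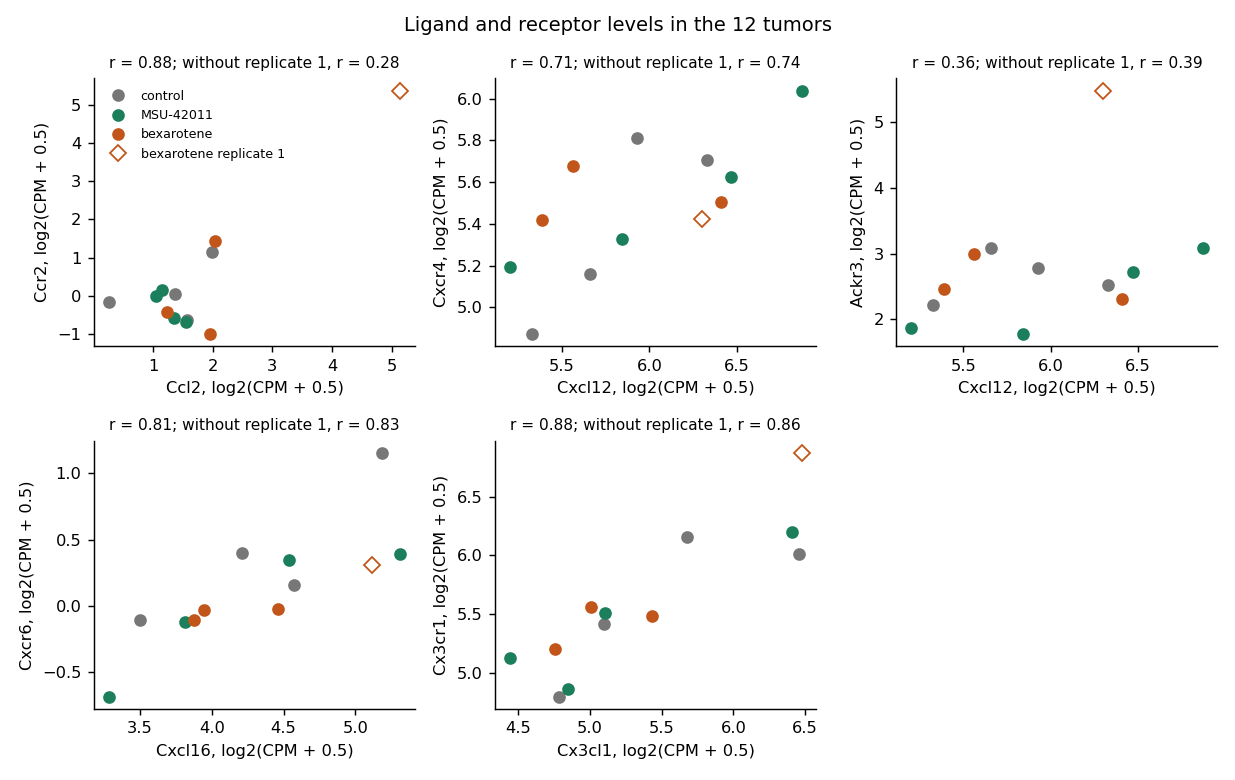
Ligand against receptor level, both as log2(CPM + 0.5), in the 12 tumors for 5 pairs, with groups by color and an open diamond for bexarotene replicate 1. Points of all 3 groups follow 1 trend for Cx3cl1 and Cx3cr1 (r = 0.884) and for Cxcl16 and Cxcr6 (r = 0.813), while for Ccl2 and Ccr2 (r = 0.875) the diamond lies alone at the upper right.

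Genes that act beside or below the receptors were taken from lists. Of 61 signalling genes downstream of chemokine receptors, all 61 were tested and none was called at an adjusted p of 0.05 by edgeR. At an unadjusted p under 0.05, 1 was higher in MSU-42011 than in control tumors, the PI3-kinase subunit gene Pik3cg (log2 difference 0.44), against a background of 1.99% of all genes in either direction. In bexarotene tumors the adenylyl cyclase genes Adcy7 (1.55) and Adcy4 (1.49) were higher and the kinase gene Src (-0.28) was lower at that level, against a background of 6.44%, and without bexarotene replicate 1 none was. Among 8 genes of related function with other names, 7 were tested, and in bexarotene tumors Pf4, a platelet chemokine (2.09), and Rarres2, which encodes chemerin (3.15), had an unadjusted p under 0.05. Their differences were -0.14 and 0.80 without bexarotene replicate 1. Among 10 heparan sulfate carriers and chemokine-cleaving proteases, 9 were tested, and the basement membrane proteoglycan gene Hspg2 (1.29) and the gelatinase gene Mmp2 (3.40) had an unadjusted p under 0.05, with differences of 0.03 and 0.96 without that tumor. The median difference of the 61 signalling genes was -0.02 for MSU-42011 and -0.01 for bexarotene, with 30 above 0. Without bexarotene replicate 1 the bexarotene median was -0.11, with 16 above 0 and 45 below, while the median over all genes was 0.01.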

How the data were processed

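Libraries were made at Novogene by poly(A) enrichment of 1 ug of RNA from each of 12 frozen MMTV-neu mammary tumors, 4 per diet. Raw counts per gene were deposited, and the submitters' processing notes name STAR 2.6.1d, featureCounts 1.5.0-p3 and DESeq2. The authors also deposited FPKM, the count divided by library total and gene length, which followed from the counts in 26106 of 26106 genes checked within a relative tolerance of 0.001. The build and strand setting are not given in the sources used here. Gene coordinates matched GRCm38 for all 67 members. The authors' tables of fold changes and p-values were not used. Groups came from the labels.

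Counts were normalized with TMM and tested with edgeR 4.0.16 (R 4.3.3; filterByExpr at its defaults, quasi-likelihood fit of all 12 tumors, biological coefficient of variation 0.338). P-values were adjusted by Benjamini-Hochberg over 15504 genes, and all tests were two-sided. CPM values are TMM-normalized. Exact permutation tests of single members used log2(CPM + 0.5), and permutation p-values of correlations came from SciPy 1.17.1. A member was given values per tumor if it had an unadjusted p under 0.05, if its groups did not overlap at a mean CPM of at least 1, if it was among the 10 ligands or 6 receptors of highest mean FPKM, or if it was Ccl6, which the study measured in macrophages, and 19 members were named so. Cxcr6, Ccl3, Ccl4, Ccl5 and the members below the filter are named beside a count or a pair. The members, gene lists and tests were chosen with earlier results of these data known.

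Alternatives were other size factors, other filters on low counts, only the groups compared, a replicate block, DESeq2 1.42.0 with and without its Cook's distance filter, limma 3.58.1 on log2(FPKM + 1) and log2(FPKM + 0.1), and each tumor left out. DESeq2 without bexarotene replicate 1, the counts at an unadjusted p and the relations to marker sums were added after seeing the data. Scripts were tested on simulated data. Promoters came from RefSeq (GRCm38.p6), where 46 of 61 symbols matched, and promoters of Ccl2, Ccl7 and Ccl11 were not shown. 1 tested member enters the counts, medians and sums but is not reported here. Total counts limit precision as given with the detection floors.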

Additional observations from a re-analysis of the deposited data

Results flagged for a closer look

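In each group of 4 tumors a member was singled out if, on the log2(CPM + 0.5) scale, its highest or lowest tumor was separated from the next by a share of the group's whole range above Dixon's 95% critical value. Chance gives this in about 1 in 20 groups, and 4 of 93 groups of tested members showed it on this scale. On the CPM scale itself, counted after seeing the data, 16 did, 13 of them through bexarotene replicate 1. The gaps below are on the log2 scale and the levels in CPM. Cxcl14 was at 8.30 CPM in MSU-42011 replicate 2, the highest of its group, with a gap of 0.830. Cxcl17 was at 1.231 CPM in control replicate 2, the highest of its group (gap 0.888), and at 0.2424 CPM in MSU-42011 replicate 2, the lowest of its group (gap 0.851). Cxcl9, a T cell attractant induced by interferon gamma, was at 0.8801 CPM in MSU-42011 replicate 4, the lowest of its group (gap 0.842).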

How the results depend on the processing

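By edgeR the number of members called at an adjusted p of 0.05 was 0 in all 4 tests under every edgeR setting and with each tumor left out, and it was 0 under limma. For MSU-42011 against bexarotene DESeq2 called 2 members, and 3 without its Cook's distance filter. Over all genes edgeR called 0, and with 1 tumor left out 0 to 1 for bexarotene against control and among the 3 groups. DESeq2, DESeq2 without the Cook's filter and DESeq2 without bexarotene replicate 1 called 1, 7 and 1 genes when MSU-42011 was compared with control, 6, 7 and 1 when bexarotene was, 25, 42 and 3 between the agonists, and 5, 5 and 3 among the 3 groups.

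The members at an unadjusted p under 0.05 moved more. For MSU-42011 against control there were 0, and 1 with only the groups compared or with DESeq2 without bexarotene replicate 1. For bexarotene against control there were 8, and 17 with no filter, 3 with at least 10 counts in every tumor, 13 with DESeq2 without the Cook's filter, 0 with each of 3 limma settings and 2 with DESeq2 without bexarotene replicate 1. For MSU-42011 against bexarotene there were 10, and 19, 5, 18, 1 and 3 under the same settings. Among the 3 groups there were 8, and 18, 3, 15, 0 and 2. With 1 tumor left out the counts ran from 0 to 1, from 0 to 12, from 2 to 14 and from 0 to 12, each lowest without bexarotene replicate 1 except the first. The cause of these differences was not tested.

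The median member difference for bexarotene against control was 0.88, and 0.30 with at least 10 counts, 0.31 with limma on log2(FPKM + 1), 0.54 on log2(FPKM + 0.1), 0.18 on log2(FPKM + 1) with no filter and 0.09 with DESeq2 without bexarotene replicate 1. For MSU-42011 against bexarotene it was -0.66, and -0.15 with limma with no filter and -0.0625 with DESeq2 without bexarotene replicate 1. With 1 tumor left out it ran from -0.44 to 0.07 for MSU-42011 against control, from 0.15 to 1.08 for bexarotene and from -0.94 to -0.15 between the agonists.

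Pairing of the tumors by replicate number was checked without a chance level, so the check cannot exclude it. Of 12 same-numbered pairs, 5 had correlated deviations above 0.1 (range -0.39 to 0.38), and 5 tumors correlated best with their own number. With the replicate block bexarotene against control gave 3 members at an unadjusted p under 0.05, the agonists against each other 2, and there was 1 among the 3 groups, and the block changed no call at an adjusted p. The estimate of Ccl2 for MSU-42011 was 0.12 with the block.

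Direction changed for members with estimates near 0 and for those that were high mainly in bexarotene replicate 1. It also changed for MSU-42011 against control when 1 control tumor was left out. Without control replicate 1, Ccl7 went from -0.86 to 0.21 and Cxcl14 from -0.66 to 0.12. Without control replicate 2, Ccl6 went from -0.49 to 0.17. For MSU-42011 against control the estimate of Ccl2 was 0.0042 with limma on log2(FPKM + 1), filtered or not, and 0.075 on log2(FPKM + 0.1), and that of Ccl27a 0.017, 0.017 and 0.019. For bexarotene against control limma gave Ccl27a 0.034, 0.034 and 0.036 and Cxcl16 0.020, 0.020 and 0.024. DESeq2 without bexarotene replicate 1 gave Ackr3 -0.082, Ccl12 -0.24, Ccl27a 0.096, Ccr1 -0.25, Cx3cr1 -0.28 and Cxcl12 -0.0045. For MSU-42011 against bexarotene it gave Cx3cl1 0.32, Cx3cr1 0.098 and Cxcl16 0.33, and Cxcl16 was 0.0061 with other size factors, 0.019 with no filter and 0.012 with DESeq2 with and without the Cook's filter. No setting other than leaving out a tumor reversed any other named member, and the cause of these reversals was not tested.

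With 1 tumor left out, the MSU-42011 differences from control ran from -0.45 to 0.16 for Ccl2, -0.023 to 0.33 for Ccl25, -0.22 to 0.15 for Ccl27a, -0.73 to 0.17 for Ccl6, -1.21 to 0.21 for Ccl7, -0.84 to 0.17 for Cx3cl1, -0.51 to 0.022 for Cx3cr1, -0.98 to 0.12 for Cxcl14, -0.54 to 0.29 for Cxcl16 and -0.048 to 0.30 for Cxcr4. The bexarotene differences from control ran from -0.076 to 1.67 for Ackr3, -0.23 to 2.19 for Ccl12, -0.20 to 0.22 for Ccl27a, -0.24 to 1.59 for Ccr1, -0.56 to 0.35 for Cx3cl1, -0.27 to 0.45 for Cx3cr1, -0.052 to 0.32 for Cxcl12, -0.38 to 0.29 for Cxcl16 and -0.080 to 0.22 for Cxcr4. Between MSU-42011 and bexarotene they ran from -0.19 to 0.11 for Ccl27a, -0.77 to 0.32 for Cx3cl1, -0.76 to 0.092 for Cx3cr1, -0.052 to 0.48 for Cxcl12, -0.48 to 0.33 for Cxcl16 and -0.12 to 0.19 for Cxcr4.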
